A study of Homo sapiens with 12 samples.

Results

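The comparison described here is that of a line with a hairpin against NRF2 and a line with a control hairpin, both under gambogenic acid (GNA). It rests on 6 of the 12 libraries of the series, 3 of the shNRF2 line and 3 of the shNC line, chosen by the treatment and hairpin in their labels. Both lines derive from A549/DDP, a cisplatin-resistant form of the human lung adenocarcinoma line A549, and every group was grown in medium with 1 µg/ml cisplatin (DDP). The groups used were shNC with GNA and shNRF2 with GNA (4 µM for 24 h, started at 70% confluence) and, to show where the comparison differs, the same lines with DMSO for 24 h. GNA is a caged xanthone from the resin of Garcinia trees. A short hairpin RNA lowers its target transcript by RNA interference. The labels do not say whether a line is 1 clone or a pool, whether replicate libraries were grown as separate cultures, or which sequence the hairpins target. The spread behind the p-values is therefore that among 3 libraries a group and may be technical, and an effect of the hairpin cannot be told apart from other differences between the lines. Of 61510 genes in the count table, 27325 had no count in the 6 GNA libraries, 19144 had counts but did not pass the filter on low counts, and 15041 were tested.

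NRF2, the product of NFE2L2, is a transcription factor that KEAP1 marks for degradation until electrophiles or oxidants modify KEAP1. It then binds antioxidant response elements together with a small MAF protein and raises genes for glutathione, thioredoxin, NADPH supply and the reduction of quinones and aldehydes. A549 cells carry inactive KEAP1, so these genes are high in them without treatment. The heat shock response is a separate program in which misfolded protein releases heat shock factor HSF1 from chaperones, and HSF1 then binds heat shock elements and raises chaperone genes. HMOX1, which encodes the heme-degrading enzyme heme oxygenase 1, can be raised by both. The series title names NRF2, HSF1 and heme oxygenase 1, and the comparison bears on which genes of these programs differ between the lines while GNA is present.

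The 6 GNA libraries held 12848607 to 15896846 counts, and tested genes took 99.8% of them. The first principal component of these libraries took 52.8% of the variance and separated the lines. The second took 13.3% and set shNC GNA replicate 1 apart from the other 5. Some of the results that this library alters, though not all, are given with and without it. The 6 genes of the epithelial marker list, 5 of them tested, summed to 11207 to 11484 CPM (counts scaled for sequencing depth, here with TMM factors) in shNC GNA and to 10509 to 11106 in shNRF2 GNA. Of 10 markers of alveolar type 2 cells, from which A549 is often said to derive, 2 passed the filter, ABCA3 and LAMP3, and the surfactant protein genes did not. No marker of 6 endothelial and 6 leukocyte genes passed it, and those lists summed to at most 0.735 and 1.05 CPM in any GNA library. In bulk RNA, fewer cells of a type and less RNA per cell cannot be told apart.

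NFE2L2 (chromosome 2, 177227595 to 177392697, minus strand, GRCh38) was lower in every shNRF2 GNA library. It stood at 88.8, 83.0 and 90.1 CPM in shNC GNA and at 46.2, 47.4 and 43.5 CPM in shNRF2 GNA, where 52.4% of the control level was left. The groups did not overlap, and the log2 fold change of shNRF2 over shNC was -0.93 ± 0.064 (SE; edgeR quasi-likelihood test, adjusted p = 1.2e-11). In DMSO it was -0.63 ± 0.064. The hairpin difference was larger under GNA by 0.30 (adjusted p = 0.042), a call that 12 of 21 alternative settings ended.

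Over all 15041 genes, 4096 (27.2%) passed an adjusted p of 0.05 under GNA, 2025 higher (13.5%) and 2071 lower (13.8%) in shNRF2. The median log2 fold change was 0.01, and the median size among called genes was 0.41 on the log2 scale. At least 2-fold higher were 208 genes (1.38%), and 339 were at least 2-fold lower (2.25%). The same contrast in DMSO, in libraries that the GNA contrast does not use, called 5475 genes (36.4%), 2631 higher (17.5%) and 2844 lower (18.9%). Called in both were 2752 genes, which is 67.2% of the GNA calls and 50.3% of the DMSO calls, and 2645 of them had the same direction. Across genes, which are not independent replicates, the log2 fold changes of the 2 contrasts had a Pearson r of 0.64. A test of the difference itself called 1072 genes (7.13%). The hairpin contrast was higher under GNA than in DMSO for 559 (3.72%) and lower for 513 (3.41%), or 333 without shNC GNA replicate 2.

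**Figure D1:**
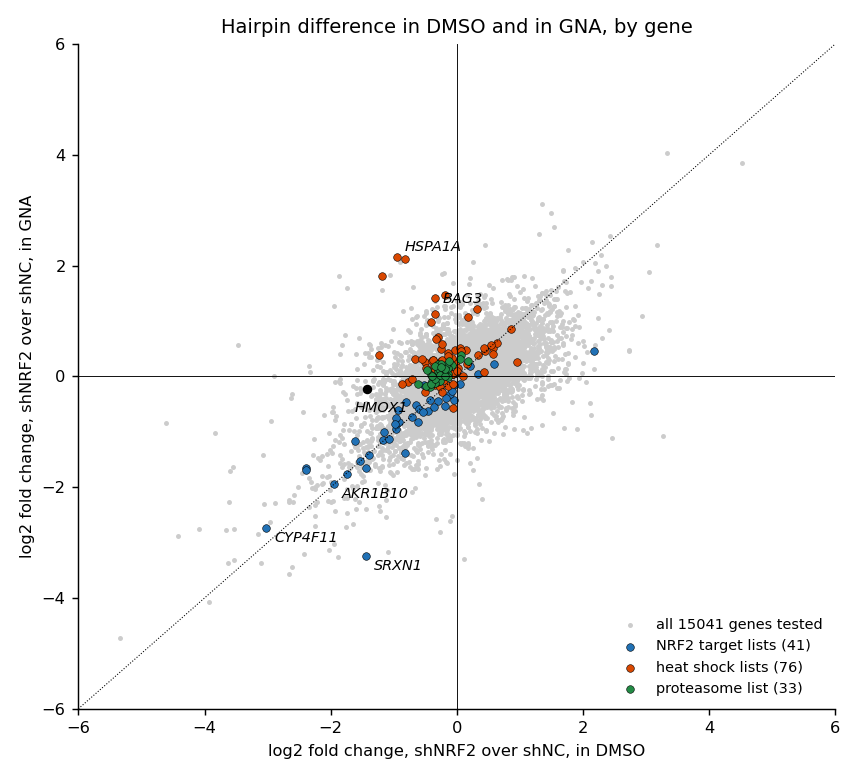
Each point is 1 tested gene, with the log2 fold change of shNRF2 over shNC in DMSO on the x axis and in GNA on the y axis (5 genes lie outside the axes), and the dotted line marks equal values. The 41 genes of the NRF2 target lists (blue) lie mostly along the line below 0, while genes of the heat shock lists (orange) such as HSPA1A and BAG3 lie below 0 in DMSO and above 0 under GNA, and HMOX1 (black) lies at -1.42 and -0.23.

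The list of NRF2 with its regulators and partners did not move as one: of 11 tested members 3 rose and 4, NFE2L2 itself included, fell under GNA, against 13.5% and 13.8% of all genes, and 2 fell without shNC GNA replicate 2. KEAP1, its inhibitor, fell from 23.4 ± 0.756 to 18.3 ± 0.865 CPM (mean ± SD, n = 3; log2 fold change -0.35 ± 0.088), and BACH1, a repressor at the same DNA elements, was lower by 0.25 (adjusted p = 0.019), a call lost in 4 of 16 alternatives. The related factor NFE2L3 was lower as well (-0.52 ± 0.15, lost in 2 alternatives), with 8.62, 11.3 and 9.93 CPM in shNC GNA against 6.18, 7.65 and 7.01. NFE2L1 (0.27 ± 0.047), the relative of NRF2 that raises proteasome genes, and the small MAF genes MAFK (0.36 ± 0.06) and MAFF (0.44 ± 0.082) were higher. MAFG, the third small MAF gene, had a log2 fold change of -0.11 ± 0.065 that did not pass the test.

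Most genes of the 3 lists of NRF2 targets were lower in shNRF2 under GNA. The lists also hold CHAC1, a gene raised by ATF4, which counts below among those higher in DMSO (2.18) and lower in the difference (-1.72). All 41 members were tested, 35 fell, 2 rose and 4 did not pass the test, where 13.8% of all genes were lower and 13.5% higher, and the list median was -0.64. In DMSO 32 of them were lower and 4 higher, against 18.9% and 17.5% of all genes, with a median of -0.70. The difference test called 8 members lower and 2 higher, against 3.41% and 3.72% of all genes, and its median over the 41 was -0.02; 5 members were lower without shNC DMSO replicate 3. Without shNC GNA replicate 1, 34 were lower and 2 higher under GNA.

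The glutathione list holds the enzymes that make, use and export this thiol. Of its 12 members 7 fell and 2 rose, against 13.8% and 13.5% of all genes. GPX2, a glutathione peroxidase, stood at 186, 189 and 175 CPM in shNC GNA and at 63.0, 63.1 and 65.0 CPM in shNRF2 GNA, 34.8% of the control level with no overlap (log2 fold change -1.52 ± 0.06, adjusted p = 1.1e-16). GCLM, the modifier subunit of the enzyme that limits glutathione synthesis, went from 64.7, 59.7 and 61.8 to 30.9, 30.4 and 31.1 CPM (-1.01 ± 0.067), and GSR, which recycles oxidized glutathione, changed by -0.96 ± 0.06. The catalytic subunit of that enzyme, GCLC, and the cystine importer SLC7A11 differed more under GNA than in DMSO. GCLC was at 49.9, 50.6 and 52.1 CPM in shNC GNA and at 35.3, 37.3 and 40.1 in shNRF2 GNA, a log2 fold change of -0.44 ± 0.067, while that in DMSO, -0.04 ± 0.067, did not pass the test (difference -0.39, adjusted p = 0.011). SLC7A11 fell from 235 ± 3.24 to 162 ± 6.75 CPM under GNA (-0.53 ± 0.047) and by 0.18 in DMSO (difference -0.35, adjusted p = 0.0017). The exporter gene ABCC2 was lower (-0.44 ± 0.054). Higher were the exporter gene ABCC3 (0.22 ± 0.058) and GSS, which completes glutathione synthesis (0.18 ± 0.063, lost in 4 of 16 alternatives).

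All 10 genes of thioredoxin and NADPH supply fell with all libraries, against 13.8% of all genes. When any 1 GNA library was left out, 8 or 9 passed the test. SRXN1, which repairs overoxidized peroxiredoxin, had the largest fall, from 6.40, 22.6 and 14.5 CPM in shNC GNA to 1.96, 1.71 and 0.984 CPM in shNRF2 GNA (log2 fold change -3.25 ± 0.34, adjusted p = 3.2e-08). The shNC libraries differed widely, with replicate 1 lowest, but all lay above the shNRF2 libraries. Its log2 fold change in DMSO was -1.44 ± 0.42, and the difference between treatments, -1.81, did not pass (adjusted p = 0.055), whereas without shNC GNA replicate 1 it was -2.16 (adjusted p = 0.0016). TXN, thioredoxin itself, was at 124, 114 and 105 against 50.1, 53.1 and 52.1 CPM (-1.14 ± 0.089), and TXNRD1, its reductase, at 3063, 3015 and 2975 against 1694, 1721 and 1672 CPM (-0.83 ± 0.043). Both pairs of groups were far apart and close within each group. TALDO1 of the pentose phosphate pathway fell by 0.74.

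Enzymes that reduce carbonyls and quinones had the lowest median, -0.997, with 19 of 20 members lower, against 13.8% of all genes. AKR1B10, an aldo-keto reductase, stood at 3039, 2945 and 2896 CPM in shNC GNA and at 769, 782 and 750.4 CPM in shNRF2 GNA, 25.9% of control in GNA and 26.0% in DMSO. Its log2 fold changes, -1.95 ± 0.045 and -1.94 ± 0.045, were nearly equal. CYP4F11, a fatty acid hydroxylase, went from 71.3, 86.8 and 78.6 to 11.1, 11.7 and 12.5 CPM (-2.74 ± 0.088), the xenobiotic conjugating enzyme UGT1A6 changed by -1.75 ± 0.35 and NR0B1, a nuclear receptor, by -1.69 ± 0.19. NQO1, the quinone reductase used as a marker of NRF2 activity, was at 636, 582 and 598 in shNC GNA and 346, 344 and 334 CPM in shNRF2 GNA (-0.83 ± 0.048, adjusted p = 3.6e-13). The AKR1C genes are near-identical copies whose reads can be exchanged. AKR1C1 fell by 1.65 and AKR1C3 by 0.62, while AKR1C2 was at 0.04 and did not pass. Summed over the 3 copies the level was 3613 ± 145 CPM in shNC GNA and 2610 ± 52.9 in shNRF2 GNA (mean ± SD, n = 3), a log2 ratio of -0.47.

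**Figure D2:**
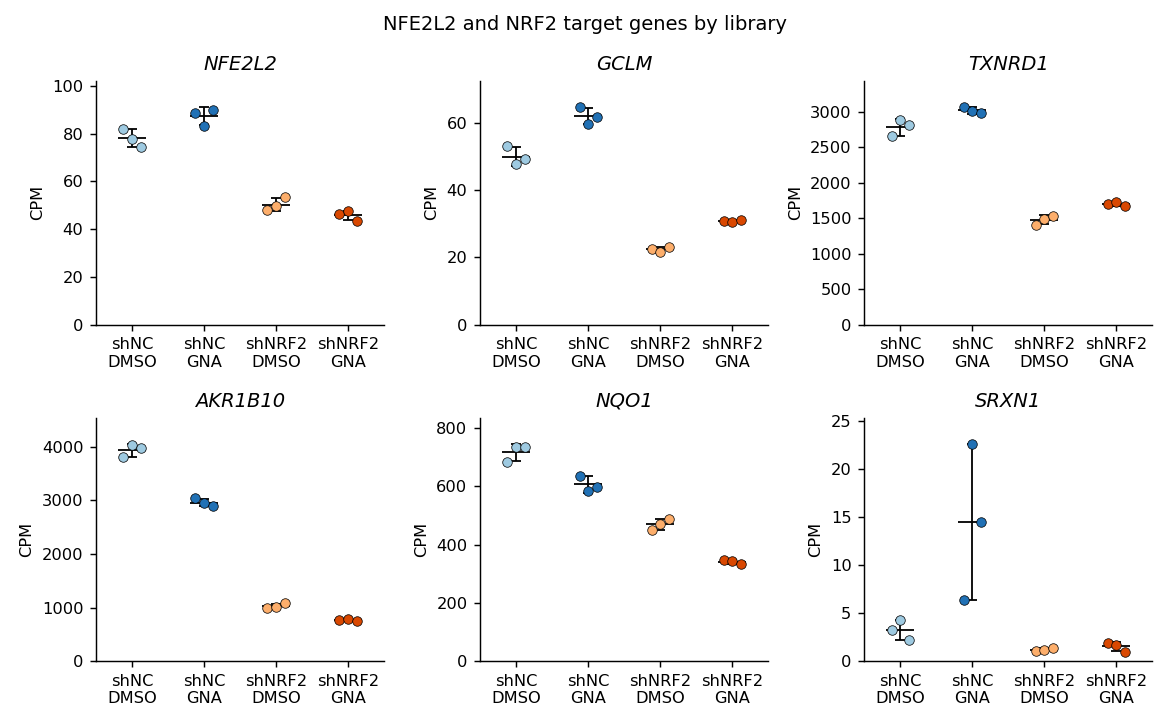
Level of NFE2L2 and 5 NRF2 target genes in CPM (y axis, from 0) in the 12 libraries, by group (x axis); points are libraries, lines the mean and bars ± SD of 3. In each panel the 3 shNRF2 GNA libraries lie below the 3 shNC GNA libraries, and the shNC GNA libraries of SRXN1 stand at 6.40, 22.6 and 14.5 CPM.

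Promoters of 3 of these genes show where the letters of an antioxidant response element lie. The motif searched was TGACNNNGC on either strand, in the 250 bases before the gene start in the RefSeq table (GRCh38.p14), and 10.9% of its 35116 promoters held a match. All 3 promoters printed hold a match, while those of SRXN1, TXN and NQO1, which also fell, held none. Each line is read 5′ to 3′ on the gene's strand, with the match in capitals, at chr1:93909431-93909680 (minus strand), chr14:64942746-64942995 (minus strand) and chr6:83431052-83431301 (minus strand).
GCLM: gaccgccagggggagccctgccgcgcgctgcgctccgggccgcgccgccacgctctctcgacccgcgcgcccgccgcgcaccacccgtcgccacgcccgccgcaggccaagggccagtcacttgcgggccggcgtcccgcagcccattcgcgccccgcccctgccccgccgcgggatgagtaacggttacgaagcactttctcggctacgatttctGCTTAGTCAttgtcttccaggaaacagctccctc
GPX2: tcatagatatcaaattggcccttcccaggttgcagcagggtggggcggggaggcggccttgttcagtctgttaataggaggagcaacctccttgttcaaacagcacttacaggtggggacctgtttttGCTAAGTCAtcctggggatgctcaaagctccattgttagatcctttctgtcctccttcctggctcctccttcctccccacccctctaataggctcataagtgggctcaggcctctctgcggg
ME1: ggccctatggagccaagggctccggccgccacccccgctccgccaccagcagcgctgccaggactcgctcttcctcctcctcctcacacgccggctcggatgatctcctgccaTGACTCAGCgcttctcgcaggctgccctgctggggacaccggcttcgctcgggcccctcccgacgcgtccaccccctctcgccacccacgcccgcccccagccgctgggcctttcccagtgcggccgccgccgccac
ME1, which makes NADPH from malate, was lower under GNA (-0.47 ± 0.056) by less than in DMSO (-0.81 ± 0.059; difference 0.34, adjusted p = 0.0092). The matches began 34, 122 and 137 bases before the start of GCLM, GPX2 and ME1. Of the 41 target genes 30 had a promoter in the table and 10 of those held a match, but at 73.2% coverage a comparison of shares is void. Among tested protein-coding genes with a promoter (82.4%), a match was found in 15.8% of all, in 16.6% of those higher and in 17.1% of those lower under GNA.

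Heme and iron genes were lower or not called: 9 of 15 fell and none rose, against 13.8% and 13.5% of all genes, at a median of -0.23. HMOX1 (chromosome 22, 35380361 to 35394214, plus strand) stood at 133, 142 and 151 CPM in shNC GNA and at 116, 121 and 126 CPM in shNRF2 GNA, so the highest shNRF2 library lay just below the lowest shNC library. The log2 fold change was -0.23 ± 0.068 (adjusted p = 0.012), a call lost with limma on FPKM values (adjusted p = 0.086 and 0.11), without shNC GNA replicate 3 (0.075) and without shNRF2 GNA replicate 1 (0.068). In DMSO, HMOX1 was at 36.3, 43.3 and 42.3 CPM in shNC and 16.2, 16.3 and 13.0 in shNRF2, a log2 fold change of -1.42 ± 0.089. The difference between the 2 contrasts was 1.19 ± 0.11 (adjusted p = 6.4e-08) and was called in all 21 alternatives. BLVRB, which reduces the biliverdin that heme oxygenase makes, followed the same order with -0.43 ± 0.065 under GNA and -0.89 ± 0.069 in DMSO, and so did the ferritin light chain FTL, at -0.49 ± 0.055 and -0.99 ± 0.057 (pseudogene copies can share its reads). The iron exporter gene SLC40A1 fell from 28.4, 27.2 and 24.9 to 8.06, 9.49 and 7.32 CPM, with -1.69 ± 0.11 under GNA and -1.39 ± 0.12 in DMSO. NCOA4, the receptor that carries ferritin to lysosomes, was lower by 0.41.

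Heat shock genes were mostly higher in shNRF2 under GNA and mostly lower in DMSO. Over 5 lists, 76 of 78 members were tested, and 42 rose and 4 fell, against 13.5% and 13.8% of all genes, at a median of 0.26. The same 76 genes in DMSO gave 13 higher and 43 lower, against 17.5% and 18.9% of all genes, at a median of -0.24. The difference was called higher for 44 and lower for 2, against 3.72% and 3.41% of all genes, at a median of 0.42. In the 16 alternatives for the GNA contrast 40 to 45 members were higher and 1 to 6 lower. Without shNC GNA replicate 1 the counts were 43 and 4, and the 4 lower members became 1 without shNC GNA replicate 2 and 2 without shNC GNA replicate 3 or shNRF2 GNA replicate 3.

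The HSP70 and HSP110 list had 10 of 13 members higher and none lower, against 13.5% and 13.8% of all genes. HSPA1A, the stress-inducible HSP70 (chromosome 6, 31815464 to 31817946, plus strand), stood at 462, 505 and 547 CPM in shNC GNA and at 2060.4, 2403 and 2304 CPM in shNRF2 GNA, 4.47 times the control level (log2 fold change 2.16 ± 0.06, adjusted p = 7.7e-20). In DMSO the order was the opposite, with 117, 112 and 109 CPM in shNC and 54.7, 59.0 and 61.7 in shNRF2 (-0.95 ± 0.067). Its near-identical copy HSPA1B rose by 2.13 under GNA, and since reads can pass between the copies their sum was also taken: 562 ± 48.5 CPM in shNC GNA and 2504 ± 185 in shNRF2 GNA, a ratio of 4.46. HSPA6, an HSP70 gene that is silent in unstressed cells, was at 60.3, 65.1 and 66.4 CPM in shNC GNA and at 229, 219 and 223 in shNRF2 GNA (1.81 ± 0.063), with 0 to 4 counts in each DMSO library. Its DMSO contrast therefore rests on almost no reads, and its difference call was lost in 3 of 21 alternatives, without shNC DMSO replicate 1 or 2 or shNRF2 DMSO replicate 2. HSPH1, the HSP110 that recharges HSP70, went from 504, 504 and 521 to 1129, 1108 and 1105 CPM (1.13 ± 0.044, and -0.35 ± 0.045 in DMSO). The abundant constitutive gene HSPA8 was higher by 0.26 under GNA and lower by 0.51 in DMSO.

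HSP90 and its co-chaperones gave 11 members higher and 1 lower of 15, against 13.5% and 13.8% of all genes. HSP90AA1, the inducible HSP90, stood at 13457, 13242 and 12588 CPM in shNC GNA and at 26510.0, 25624 and 25112 CPM in shNRF2 GNA (log2 fold change 0.98 ± 0.05, adjusted p = 2.8e-14). The groups did not overlap, and in DMSO the contrast was -0.40 ± 0.049. HSP90AB1, the constitutive form, was higher by 0.30 under GNA and lower by 0.38 in DMSO. The co-chaperones CACYBP (0.49 ± 0.052) and STIP1 (0.41 ± 0.046), which links HSP70 to HSP90, showed the same pair of directions (-0.25 and -0.14 in DMSO). TSC22D3, a glucocorticoid-induced leucine zipper gene in the list, was higher under both treatments (0.85 and 0.86), and TRAP1, the mitochondrial HSP90, was lower (-0.17 ± 0.058, lost in 5 of 16 alternatives).

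Among J-domain genes, whose products hand substrates to HSP70, 9 of 19 tested rose and 1 fell, against 13.5% and 13.8% of all genes. DNAJB1 was at 175, 187 and 176 CPM in shNC GNA and at 498, 498 and 501 CPM in shNRF2 GNA (1.48 ± 0.053, adjusted p = 1.3e-17), against -0.18 ± 0.056 in DMSO. The cytosolic DNAJB2 was higher under GNA (0.51 ± 0.078), and so were DNAJB9 and DNAJB11 of the endoplasmic reticulum (ER), which had nearly the same log2 fold change in GNA (0.61 and 0.56) and DMSO (0.64 and 0.54). The member that fell was DNAJA2 (-0.16 ± 0.047, lost in 2 alternatives).

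Small heat shock proteins, BAG genes and chaperonins split: 7 of 19 tested rose and 1 fell, against 13.5% and 13.8% of all genes. The median was 0.00. BAG3, which couples HSP70 to selective autophagy, went from 198, 224 and 223 to 591, 561 and 579 CPM (1.42 ± 0.057, and -0.34 ± 0.06 in DMSO), and HSPB1, the small heat shock protein HSP27, from 125, 134 and 144 to 281, 281 and 289.5 CPM (1.08 ± 0.059, and 0.18 ± 0.061 in DMSO). The groups did not overlap for either gene. The mitochondrial co-chaperonin HSPE1 was higher by 0.59 and BAG5 by 0.51. BAG1 was lower, at 208, 197 and 204 CPM against 263, 329 and 314 in shNC GNA (-0.57 ± 0.06). HSF1, the factor itself, stood at 30.8, 33.7 and 36.3 CPM in shNC GNA and 29.6, 24.4 and 29.1 in shNRF2 GNA. Its log2 fold change of -0.28 ± 0.1 passed only narrowly (adjusted p = 0.041) and was lost in 8 of 16 alternatives, with adjusted p up to 0.22. Further members of the list of factors and modulators were higher: the collagen chaperone SERPINH1 (37.0, 38.0 and 42.9 to 96.6, 83.6 and 92.6 CPM, 1.21 ± 0.086), DEDD2 (0.71 ± 0.11) and the polyubiquitin gene UBB (0.37 ± 0.045).

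**Figure D3:**
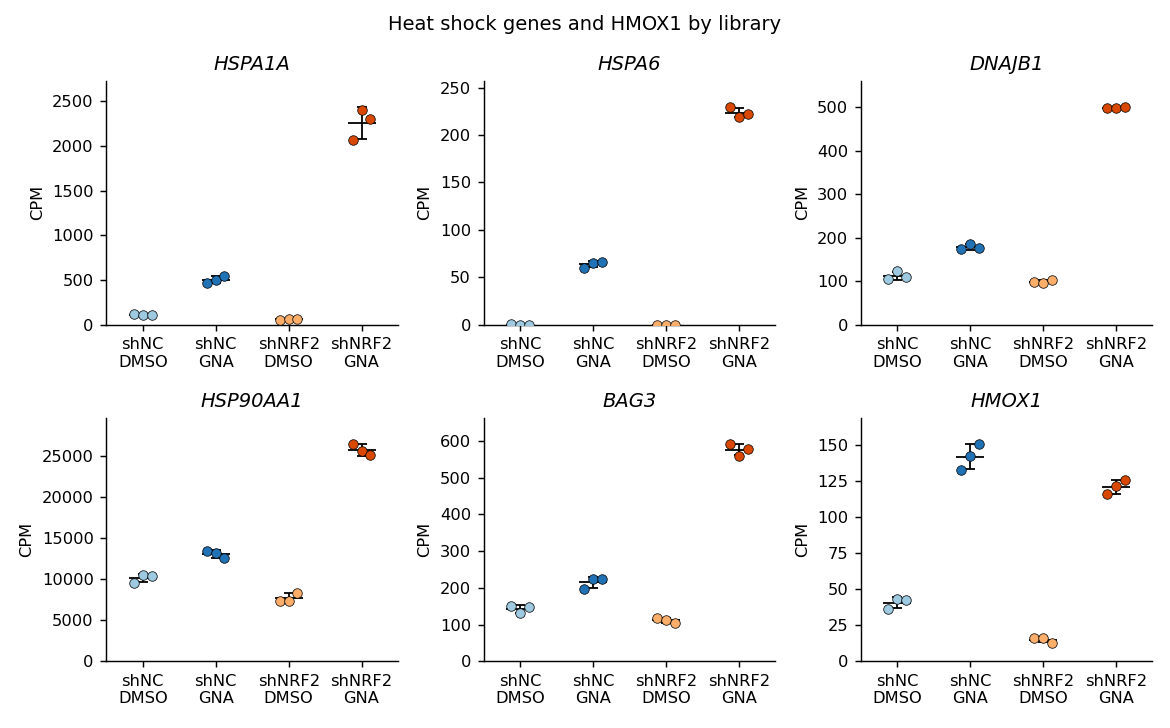
Level of 5 heat shock genes and HMOX1 in CPM (y axis, from 0) in the 12 libraries by group (x axis), with points for libraries, lines for the mean and bars for ± SD of 3. In the 5 heat shock panels the shNRF2 GNA libraries are highest, whereas HMOX1 is highest in shNC GNA.

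Promoters of the heat shock genes were searched in the same table for the 2-unit heat shock element GAANNTTC, which 5.78% of promoters held, and for the 3-unit element, in which any 2 bases and GAA follow that core, which 0.441% held. Both were searched on either strand, and each 3-unit match contains a core. The core was added after the data were seen. The 4 promoters printed were chosen because they hold a match, and those of BAG3 and HSPH1, which also rose by over 1 on the log2 scale, held neither element. Capitals mark matches to either motif and, in HSPA6, to the antioxidant response element, at chr1:161524290-161524539 (plus strand), chr11:75562003-75562252 (plus strand), chr6:31815293-31815542 (plus strand) and chr19:14518398-14518647 (minus strand). For SERPINH1 and DNAJB1, which have more than 1 promoter in the table, the one with a match is shown.
HSPA6: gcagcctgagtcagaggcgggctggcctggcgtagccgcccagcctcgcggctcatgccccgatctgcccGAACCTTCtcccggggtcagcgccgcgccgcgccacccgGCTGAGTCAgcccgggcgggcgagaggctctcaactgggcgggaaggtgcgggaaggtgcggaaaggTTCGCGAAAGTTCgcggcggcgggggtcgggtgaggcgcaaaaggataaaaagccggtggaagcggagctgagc
SERPINH1: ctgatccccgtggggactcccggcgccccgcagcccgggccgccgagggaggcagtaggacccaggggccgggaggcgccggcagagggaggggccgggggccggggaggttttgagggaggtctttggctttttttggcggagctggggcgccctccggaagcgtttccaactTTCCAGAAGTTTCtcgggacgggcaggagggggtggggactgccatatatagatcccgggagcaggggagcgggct
HSPA1A: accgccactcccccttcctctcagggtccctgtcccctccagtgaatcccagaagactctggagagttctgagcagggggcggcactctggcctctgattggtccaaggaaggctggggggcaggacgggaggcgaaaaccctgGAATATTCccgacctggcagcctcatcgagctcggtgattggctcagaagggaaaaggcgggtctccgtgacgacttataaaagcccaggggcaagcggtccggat
DNAJB1: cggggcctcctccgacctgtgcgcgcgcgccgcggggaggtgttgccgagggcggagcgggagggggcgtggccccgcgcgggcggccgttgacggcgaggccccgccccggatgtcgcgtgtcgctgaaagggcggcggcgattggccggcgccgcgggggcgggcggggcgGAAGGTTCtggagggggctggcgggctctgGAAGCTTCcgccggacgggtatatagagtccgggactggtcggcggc
HSPA6 and SERPINH1 held the 3-unit element, at 74 and 76 bases before the gene start, and HSPA1A and DNAJB1 the core only. Of the 78 heat shock genes 69 had a promoter in the table, and 8 of those held the 3-unit element, 19 the core and 16 the antioxidant response element. Counted by gene in the same way, 0.557%, 7.05% and 13.2% of the 27305 genes in the table held them. Among tested protein-coding genes with a promoter the 3-unit element was found in 0.480% of all, in 0.993% (15 genes) of those higher and in 0.527% (8 genes) of those lower under GNA.

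Proteasome genes, of which NFE2L1 and NRF2 are known regulators, were lower in shNRF2 in DMSO and near the control level under GNA. Of 33 genes, 26 were lower and none higher in DMSO (18.9% and 17.5% of all genes; median -0.28), while under GNA 10 were higher and 2 lower (13.5% and 13.8%; median 0.07). The difference was higher for 21 and lower for none (3.72% and 3.41%), at a median of 0.32. The GNA counts depend on single libraries: 4 members were higher without shNRF2 GNA replicate 1, 5 without shNC GNA replicate 3, and 6 without shNC GNA replicate 2 or shNRF2 GNA replicate 3. Without shNC GNA replicate 1, 8 members were higher and 0 lower. The regulatory particle genes PSMD3 (0.29 ± 0.059), PSMC4 (0.23 ± 0.053) and PSMD6 (0.23 ± 0.064) and the ubiquitin receptor ADRM1 (0.31 ± 0.061) were higher, and PSMA3 and PSMA4 of the core particle lower (-0.20 and -0.16, lost in 9 and 7 of 16 alternatives).

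In the autophagy and lysosome list 5 of 25 genes rose and 4 fell, near the 13.5% and 13.8% of all genes. SQSTM1, the p62 receptor that also binds KEAP1, stood at 1062, 1118 and 1089 CPM in shNC GNA and 846, 883 and 873 CPM in shNRF2 GNA (-0.33 ± 0.045), a smaller gap than in DMSO (-1.26 ± 0.046; difference 0.93, adjusted p = 1.5e-10). Of the ATG8 genes, MAP1LC3B (0.46 ± 0.08) and GABARAPL1 (0.27 ± 0.069) were higher under GNA and lower in DMSO (-0.29 and -0.54). Another, GABARAPL2, was lower under GNA (-0.22 ± 0.073) and had a log2 fold change of -0.39 in DMSO. The cathepsins CTSB (-0.67 ± 0.045) and CTSL (-0.55 ± 0.049) were lower under both.

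The integrated stress response, in which ATF4 raises amino acid supply and stress genes, was higher in part: 13 of 29 genes rose and 3 fell under GNA (against 13.5% and 13.8% of all genes), at a median of 0.15, and 18 rose and 3 fell in DMSO (17.5% and 18.9%). The difference was lower for 11 and higher for 2, against 3.41% and 3.72% of all genes, at a median of -0.17. Over the 21 alternatives for the difference, 6 to 12 members were lower. DDIT3 (CHOP) was at 52.2, 47.7 and 49.1 CPM in shNC GNA and 95.1, 86.3 and 87.6 CPM in shNRF2 GNA (0.85 ± 0.07). NUPR1 (0.66 ± 0.059), the mTORC1 restraint DDIT4 (0.61 ± 0.054) and the alanyl-tRNA synthetase AARS1 (0.59 ± 0.048) were higher too. CEBPB, a partner of CHOP and ATF4, was lower, at 49.5, 65.7 and 77.2 against 37.1, 25.05 and 40.1 CPM (-0.92 ± 0.15). PSAT1 of serine synthesis and the secreted factor STC2 were lower under GNA (-0.17 and -0.21, lost in 2 and 3 of 16 alternatives) and higher in DMSO (0.48 and 0.38). ATF4 itself had a log2 fold change of -0.01 ± 0.042, which did not pass. Without shNRF2 GNA replicate 3, 8 members were higher under GNA, and without shNC GNA replicate 1, 9 were.

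ER chaperones and genes of the unfolded protein response were higher in shNRF2 under both treatments: 16 of 20 rose and 1 fell under GNA (against 13.5% and 13.8% of all genes; median 0.38), and 18 rose in DMSO (17.5%; median 0.45). HSPA5, the ER HSP70 known as BiP, was at 1362, 1452 and 1476 CPM in shNC GNA and 3039, 2887 and 2964 CPM in shNRF2 GNA (1.05 ± 0.051, adjusted p = 1.0e-14). Its gap was larger than in DMSO by 0.42 (adjusted p = 0.00042). The stress sensor ERN1 (IRE1) was higher by 1.00, the chaperone HYOU1 by 0.88 and HERPUD1 of ER-associated degradation by 0.77. CRELD2 was the one lower member (-0.45 ± 0.11), and it was higher in DMSO (0.50 ± 0.1).

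**Figure D4:**
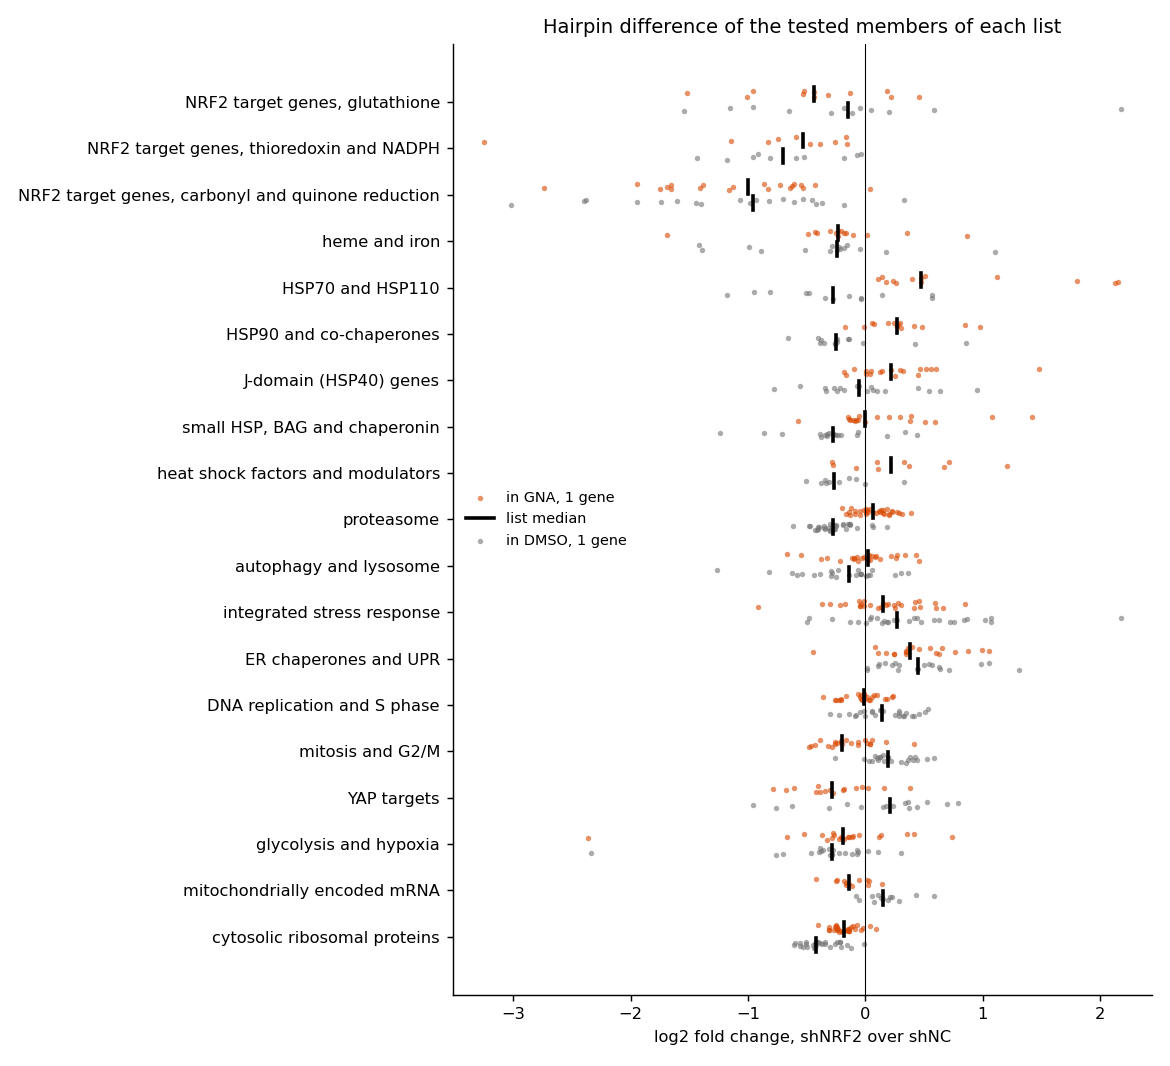
Log2 fold change of shNRF2 over shNC (x axis) for the tested members of 19 gene lists (y axis), under GNA (orange) and in DMSO (grey); points are genes, with vertical scatter for legibility, and black lines list medians. The medians of the NRF2 target lists lie below 0 in both, and those of the proteasome and of 3 of the 5 heat shock lists lie below -0.2 in DMSO and above 0 under GNA.

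Of 26 genes of DNA replication and S phase, 2 rose and 3 fell, no more than the 13.5% and 13.8% of all genes, with RRM2, which supplies deoxynucleotides, lower by 0.36. For mitosis and G2/M, 6 of 23 tested genes fell (13.8% of all genes) and none rose (13.5%), at a median of -0.20. NCAPG, a condensin subunit, was at 18.4, 16.3 and 16.2 against 12.6, 14.2 and 9.72 CPM (-0.48 ± 0.12), AURKA, a spindle kinase, at -0.46 ± 0.073 and CDK1, which starts mitosis, at -0.43 ± 0.092. In DMSO the list had 10 higher and 1 lower (17.5% and 18.9% of all genes; median 0.19), and the difference was lower for 11 (3.41% of all genes) and higher for none, with 7 lower when shNC GNA replicate 2 or 3 or shNRF2 GNA replicate 1 was left out. Among G1 cyclins, CDK inhibitors and p53 targets 3 of 24 rose and 8 fell (against 13.5% and 13.8% of all genes), among them TP53I3 (-0.79 ± 0.068) and PHLDA3 (-0.69 ± 0.073), while the inhibitor gene CDKN1B was higher (0.46 ± 0.069). Of 14 BCL2 family genes, 1 rose and 3 fell (13.5% and 13.8% of all genes): the death effectors and sensors BAX (-0.34 ± 0.086), PMAIP1 (-0.27 ± 0.052) and BBC3 (-0.28 ± 0.096, lost in 5 of 16 alternatives) fell and HRK rose (1.19 ± 0.34, from 0.947 to 2.18 CPM on average).

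The 12 largest rises under GNA by the naming rule (a mean of 5 CPM or more in one group and no overlap between groups, the latter as in 41.8% of all genes) included the 3 HSP70 genes above and 9 others. TNC, the matrix protein tenascin C, had the largest log2 fold change, 4.04 ± 0.39, from 0.0719, 0.308 and 0.735 CPM in shNC GNA to 5.65, 6.83 and 6.89 CPM. Its shNC GNA libraries held 1 to 12 counts, so the size of this change is uncertain. TNFSF15, a TNF family ligand, went from 1.80, 1.11 and 1.90 to 9.19, 7.53 and 8.18 CPM (2.37 ± 0.19) and LCN2, the iron-siderophore carrier lipocalin 2, from 51.1, 54.6 and 55.3 to 184, 189 and 181 CPM (1.78 ± 0.054). SUSD2, HES7, ITGA11, KCNMA1, CHGB and GLI1 rose by 1.63 (GLI1) to 1.90 (SUSD2). Every one of these 9 genes was also called higher in DMSO, where TNFSF15, ITGA11, SUSD2, CHGB and GLI1 had larger log2 fold changes than under GNA. The difference was called for LCN2, higher under GNA (0.60, adjusted p = 1.5e-05), and for CHGB, lower (-0.39, adjusted p = 0.029, lost in 9 of 21 alternatives).

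The largest falls were led by CES1, a carboxylesterase, which went from 16.7, 13.2 and 19.5 CPM in shNC GNA to 0.377, 1.01 and 0.430 CPM in shNRF2 GNA (-4.72 ± 0.25, adjusted p = 7.6e-14). MAP2, a microtubule-associated protein best known from neurons, went from 67.8, 75.2 and 75.6 to 4.29, 4.68 and 4.00 CPM (-4.07 ± 0.095), and HPD, of tyrosine breakdown, from 64.8, 61.2 and 70.2 to 6.18, 7.40 and 5.35 CPM (-3.37 ± 0.1). KRT6A, GAS2, SYTL5, SLC5A11 and CDH17 fell by 2.44 (CDH17) to 3.44 (KRT6A), and all were lower in DMSO too. The difference was called for SYTL5 (-1.89 in DMSO, lost in 8 of the 20 alternatives that tested it) and CDH17 (-1.93 in DMSO, lost in 9 of 21). SRXN1 and CYP4F11, described above, belong to the same 12. NDUFAF8, an assembly factor of respiratory complex I, was at 228, 228 and 222 CPM in shNC GNA and 27.5, 14.6 and 33.5 CPM in shNRF2 GNA, but at 107, 35.8 and 32.0 CPM in shNC DMSO and 39.1, 21.2 and 19.98 CPM in shNRF2 DMSO, so that the shNC GNA libraries stood above all others (difference -2.07 ± 0.43, lost in 2 of 21 alternatives). GET4, which helps deliver tail-anchored proteins, was at 3.74, 14.4 and 11.6 CPM in shNC GNA and 1.81, 1.33 and 1.17 in shNRF2 GNA (-2.81 ± 0.4), with replicate 1 again lowest of the shNC libraries. Without shNC GNA replicate 1 its log2 fold change was -3.19. Its difference from DMSO, -2.55, was lost in 4 of 21 alternatives, among them without shNC DMSO replicate 3 and without shNRF2 DMSO replicate 1.

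**Figure D5:**
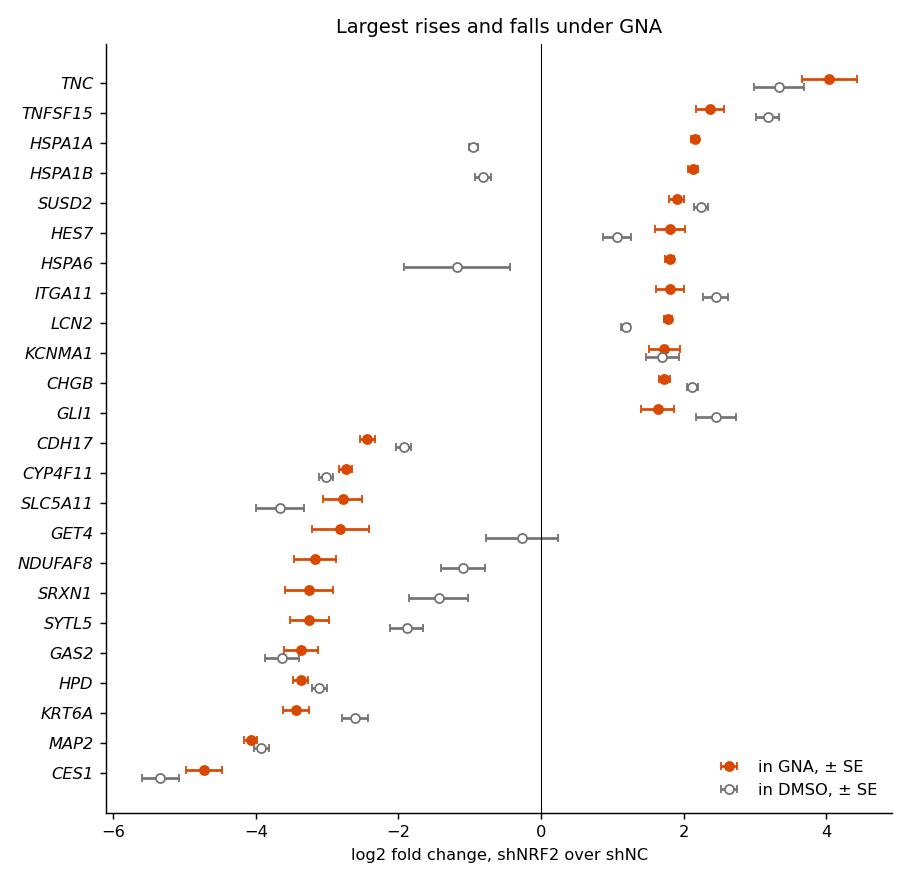
Log2 fold change of shNRF2 over shNC (x axis, ± SE worked back from the test) for the 12 largest rises and 12 largest falls under GNA (y axis, ordered by that value), under GNA (filled) and in DMSO (open). HSPA1A, HSPA1B and HSPA6 lie on opposite sides of 0 in the 2 treatments, and GET4 lies near 0 in DMSO.

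Matrix and adhesion genes differed in both directions, 9 of 24 tested higher and 9 lower, against 13.5% and 13.8% of all genes, where the fibroblast marker list (2 of 8 tested) summed to 7.69 to 8.39 CPM in shNC GNA and 7.99 to 9.17 in shNRF2 GNA; the part of such cells was not tested. Fibronectin FN1 (586, 717 and 750.1 to 1208, 1209 and 1271 CPM, 0.84 ± 0.074) and the collagens COL5A1 (1.26 ± 0.071) and COL4A2 (0.66 ± 0.085) were higher. Lower were the laminin gene LAMB3 (255, 273 and 300.1 to 156, 167 and 159 CPM, -0.78 ± 0.059), the cadherin CDH2 (-1.47 ± 0.23) and SNAI2 (-1.77 ± 0.5, at most 1.11 CPM in any GNA library). Of 18 tested keratin and junction genes 4 rose and 8 fell, against those shares, counts that went down to 1 and 4 without shNRF2 GNA replicate 2. SFN, the epithelial 14-3-3 protein stratifin, went from 1329, 1289 and 1281 to 409, 437 and 422 CPM (-1.62 ± 0.046) and CDH1, E-cadherin, from 42.5, 47.7 and 45.6 to 65.4, 63.2 and 71.1 CPM (0.56 ± 0.076).

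Genes raised by the growth regulator YAP were mostly lower under GNA and more often higher than lower in DMSO. Under GNA 11 of 16 fell and 2 rose (13.8% and 13.5% of all genes; median -0.29). In DMSO 5 were lower and 9 higher (18.9% and 17.5%; median 0.21), and the difference was lower for 7 and higher for 1 (3.41% and 3.72%). CCN2, connective tissue growth factor, stood at 21.7, 24.98 and 27.4 CPM in shNC GNA and 13.7, 14.7 and 14.5 CPM in shNRF2 GNA (-0.79 ± 0.097), and at 17.8, 20.3 and 17.8 CPM in shNC DMSO and 32.0, 30.5 and 28.4 in shNRF2 DMSO (0.70 ± 0.093). The order of the lines was thus the opposite under the 2 treatments, with no overlap in either (difference -1.49 ± 0.13, adjusted p = 3.1e-08). F3, tissue factor (-0.67 ± 0.16), and AMOTL1 (-0.61 ± 0.055) were lower under both.

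Of 22 inflammatory genes 8 rose and 3 fell, against 13.5% and 13.8% of all genes. Complement C3 (144, 160.1 and 179 to 366, 395 and 399 CPM, 1.26 ± 0.068), IL11 (1.11 ± 0.27) and CXCL1 (0.67 ± 0.083) were higher with LCN2. NFKBIA, the inhibitor of NF-kB, was lower under GNA (176, 173 and 182 to 101, 96.2 and 99.7 CPM, -0.84 ± 0.069), and its contrast in DMSO, -0.16 ± 0.067, did not pass (difference -0.68, adjusted p = 3.7e-05). Among 19 tested interferon-stimulated genes 3 rose and 7 fell, against the same shares, with IFI44 at -0.64 ± 0.074, IFIT3 at -0.42 ± 0.046 and STAT2 at 0.93 ± 0.1. Of 22 immediate early and ERK feedback genes 2 rose and 5 fell (2 without shNC GNA replicate 3), against those shares, among them the phosphatase gene DUSP5 (-1.04 ± 0.085) and FOSL1 (-0.65 ± 0.065).

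For drug efflux and cisplatin handling 5 of 20 tested genes rose and 3 fell, against 13.5% and 13.8% of all genes. ABCB1, the multidrug efflux pump P-glycoprotein, stood at 31.9, 33.6 and 27.4 CPM in shNC GNA and 53.3, 57.4 and 50.4 CPM in shNRF2 GNA (0.80 ± 0.092), and was lower in shNRF2 in DMSO (-0.29 ± 0.11; difference 1.08, adjusted p = 1.2e-05). ABCG2, another multidrug pump, was lower under both, at 14.0, 13.0 and 13.4 CPM in shNC GNA against 4.59, 4.43 and 5.23 CPM in shNRF2 GNA (-1.50 ± 0.13). The metallothionein gene MT2A was higher, 189, 169.8 and 177 to 391, 386 and 395 CPM (1.13 ± 0.052), with other metallothionein copies that could share its reads.

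In metabolism, 12 of 22 tested genes of glycolysis and the hypoxia response fell and 2 rose, against 13.8% and 13.5% of all genes. In DMSO 14 of them were lower and 1 higher, against 18.9% and 17.5%. EGLN3, an oxygen sensor, went from 11.9, 11.9 and 12.9 to 1.96, 2.34 and 2.77 CPM under GNA (-2.36 ± 0.15, and -2.34 in DMSO). The glucose importer SLC2A1 fell by 0.52 under GNA (-0.38 in DMSO). Cholesterol and fatty acid synthesis had 3 of 27 higher and 5 lower under GNA, near the 13.5% and 13.8% of all genes, with IDI1 at -0.64 ± 0.11. Among 14 ferroptosis genes 3 rose and 4 fell, against 13.5% and 13.8% of all genes, at a median of -0.01. The spermidine acetyltransferase SAT1 was highest of them at 0.53 ± 0.048, and TXNRD1 lowest at -0.83 ± 0.043. Of 30 cytosolic ribosomal protein genes, which have many pseudogene copies, 16 fell and none rose (against 13.8% and 13.5%; median -0.18), a count that was 9 without shNC GNA replicate 1. In DMSO 28 of the ribosomal protein genes were lower and none higher, against 18.9% and 17.5% of all genes, at a median of -0.42. Of 13 mitochondrially encoded mRNAs 5 fell and none rose under GNA, against 13.8% and 13.5% of all genes. Over the 16 alternatives 2 to 8 fell (3 when any one of shNC GNA replicates 2 and 3 and shNRF2 GNA replicates 1 and 3 was left out). The 13 together took 4.67 ± 0.19% of the counts in shNC GNA and 4.21 ± 0.015% in shNRF2 GNA (mean ± SD, n = 3). In DMSO the mean was higher in shNRF2, 5.93 ± 0.43% against 5.21 ± 0.68% in shNC, with overlap between the groups. There 6 of the 13 were higher (3 to 10 over the alternatives) and none lower, against 17.5% and 18.9% of all genes. The difference was lower for 6 (2 to 13 over the alternatives) and higher for none, against 3.41% and 3.72%.

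The genes with opposite directions show where the hairpin contrast under GNA is not that of DMSO. Called in both but in opposite directions were 107 genes, 82 of them (0.545% of all genes) higher under GNA and lower in DMSO. Of the 82, 23 are on the heat shock lists (76 tested) and 7 on the proteasome list (33 tested). Of the 25 that were lower under GNA and higher in DMSO, 3 are mitochondrial transcripts and 1 is TOP2A, which untangles DNA before mitosis (-0.17 ± 0.048 and 0.41 ± 0.047). A further 240 genes were called under GNA and not in DMSO with the difference called, 124 higher and 116 lower under GNA. The difference was also called for 476 genes with a hairpin call in DMSO and none under GNA.

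By the naming rule for the difference, HSPA1A (3.11 ± 0.09), HSPA6 and HSPA1B led the genes whose contrast was higher under GNA, followed by MYH14, a nonmuscle myosin heavy chain, and IGFN1. MYH14 stood at 21.8, 21.2 and 22.0 CPM in shNC DMSO and 4.70, 2.38 and 3.15 in shNRF2 DMSO, but at 50.7, 56.5 and 56.2 CPM in shNC GNA and 40.7, 45.2 and 38.8 in shNRF2 GNA, so the gap narrowed from -2.64 ± 0.14 to -0.39 ± 0.091. IGFN1 kept a clear gap, 21.6, 21.9 and 22.0 against 6.33, 6.58 and 7.01 CPM under GNA (-1.71 ± 0.13), where it was -3.59 ± 0.22 in DMSO. On the log2(FPKM + 1) scale its difference turned to -0.22 and did not pass. On the lower side, C12orf75 was at 49.0, 133 and 104 CPM in shNC GNA and 27.9, 19.7 and 27 in shNRF2 GNA (-1.94 ± 0.21), with no call in DMSO (0.36 ± 0.21). CHAC1, a glutathione-degrading enzyme raised by ATF4, was called in DMSO only (2.18 ± 0.36, and 0.46 ± 0.22 under GNA), at under 7 CPM in every library. SLC25A6 and AKAP17A also met the rule, but their levels swung between libraries of 1 group: SLC25A6 was at 2.42, 2.89 and 22.5 CPM in shNC DMSO and 2.79, 3.79 and 24.2 in shNRF2 GNA, and AKAP17A at 99.0, 10.6 and 103 CPM in shNC GNA and 16.6, 66.3 and 14.3 in shNRF2 GNA. Both lie in the pseudoautosomal region, where the X and Y copies are identical and reads can be placed on either. Without shNC DMSO replicate 3 the difference for SLC25A6 fell from 3.35 to 1.55 (adjusted p = 0.32), and without shNRF2 GNA replicate 3 it was 1.69. In all 8 of 21 alternatives ended that call. The difference of AKAP17A was lost with DESeq2 and with limma on both FPKM scales.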

How the data were processed

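Per the labels' protocols total RNA of A549/DDP lines was sequenced in 12 libraries, 3 in each of 4 groups. The authors deposited a table of raw read counts per gene and one of FPKM values (fragments scaled to gene length and depth), and the submitters' processing notes name GRCh38 and DESeq2. No aligner, counter or annotation is named (not given in the sources used here), so whether the counting used strand is unknown. The FPKM values agreed within 0.001 with a rescaling of the counts for all 11620 genes with at least 20 counts in every library.

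The counts were tested as deposited. Genes were kept with edgeR's filterByExpr (minimum count 10, minimum total 15) on the 6 GNA libraries, scaled with TMM factors and fitted with edgeR 4.0.16 in R 4.3.3 (quasi-likelihood test) in all 12 libraries, with 1 coefficient a group and 8 residual degrees of freedom. Every adjusted p without another tool's name is from this test with Benjamini-Hochberg adjustment over 15041 genes, and a gene was called below 0.05. Contrasts were shNRF2 over shNC under GNA, the same in DMSO, and the difference between these. SE was worked back from the test, as the size of the log2 fold change over the square root of its F statistic. A tested gene had a median of 201 counts per GNA library. Counts were simulated for the GNA contrast on 15041 genes, with 101 genes changed 2-fold and 99 changed 1.5-fold. Of these 78.2% and 61.6% were recovered, and 6.67% of the 150 calls were false. Far fewer genes were changed than the 4096 called in the data, so these shares may not hold for the data. Depth was not varied. A permutation test of 3 against 3 libraries cannot go below p = 0.1 and was not used.

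Members, lists and tests were chosen with earlier results of these data known. Named genes were 31 fixed genes, the 12 largest rises and 12 largest falls under GNA (called, approved symbol, a mean of 5 CPM or more in one group, groups not overlapping), up to 4 called genes each way per list, and the 6 largest differences each way. HSPA8, HSP90AB1, ME1 and TOP2A were named after their values were seen. Gene positions are those of GENCODE 29 (GRCh38). Same-numbered libraries of different groups did not deviate together (3 of 18 pairs had a correlation over 0.1), so no pairing was assumed. Alternatives were other scaling factors, filters, DESeq2 1.42.0, limma 3.58.1 on log2(FPKM + 1) and log2(FPKM + 0.1), a replicate block, the compared groups alone and each library left out. Some genes of the lists are not reported here by name. The single-cell data named in the design text were not analysed here.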

Additional observations from a re-analysis of the deposited data

Results flagged for a closer look

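For each gene named here the difference between the hairpin contrast under GNA and in DMSO passed the test, and the value in parentheses is that difference on the log2 scale, positive where shNRF2 stood higher relative to shNC under GNA.

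Among chaperones and their partners the difference was positive for HSPA1A (3.11), HSPA6 (2.99), HSPA1B (2.94), BAG3 (1.77), DNAJB1 (1.66), HSPH1 (1.47), HSP90AA1 (1.38), DEDD2 (1.02), HSPB1 (0.89), SERPINH1 (0.88), HSPE1 (0.83), HSPA8 (0.77), CACYBP (0.73), HSP90AB1 (0.67), STIP1 (0.56), UBB (0.50), DNAJB2 (0.47) and HSPA5 (0.42). BAG1 (-0.51) was on the negative side. Proteasome genes with a positive difference were PSMC4 (0.53), PSMD6 (0.48), PSMD3 (0.42) and PSMA4 (0.32). Among heme, iron, autophagy and NRF2-related genes it was positive for HMOX1 (1.19), SQSTM1 (0.93), GABARAPL1 (0.81), MAP1LC3B (0.75), FTL (0.50), MAFF (0.49), BLVRB (0.45), MAFG (0.40), ME1 (0.34), CTSL (0.27) and SAT1 (0.22), and negative for NQO1 (-0.22), AKR1C2 (-0.29), NFE2L2 (-0.30), SLC7A11 (-0.35), ABCC3 (-0.36), GCLC (-0.39), NFE2L3 (-0.71) and CHAC1 (-1.72).

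Genes of the integrated stress and ER responses with a negative difference were AARS1 (-0.25), NUPR1 (-0.41), HERPUD1 (-0.54), STC2 (-0.59), PSAT1 (-0.65), CEBPB (-0.79) and CRELD2 (-0.95). The cell cycle genes CDK1 (-0.56), TOP2A (-0.57) and NCAPG (-0.64) had a negative difference as well. Of the other genes, SLC25A6 (3.35), MYH14 (2.25), IGFN1 (1.88), ABCB1 (1.08), LCN2 (0.60) and SFN (0.42) had a positive difference. It was negative for CDH1 (-0.39), CHGB (-0.39), CDH17 (-0.51), NFKBIA (-0.68), SYTL5 (-1.37), CCN2 (-1.49), NDUFAF8 (-2.07), C12orf75 (-2.30), GET4 (-2.55) and AKAP17A (-3.56). The levels of SLC25A6, AKAP17A, GET4, NDUFAF8 and C12orf75 differed widely between libraries of 1 group. Of all 82 differences called among the genes named in the text or by the naming rule, 32 were lost in at least 1 alternative, among them those of SLC25A6, AKAP17A, GET4, NDUFAF8, HSPA6, NFE2L2, CHGB and SYTL5.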

How the results depend on the processing

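Under GNA, none of the alternative settings moved the counts of higher and lower genes by more than 1.5 times, and 78.8% to 98.5% of the 4096 calls were kept with the same direction, with 0 calls in the opposite direction in any of the 16. With 1 library left out, the counts were 1628 to 1775 higher and 1722 to 1854 lower under GNA, 2113 to 2551 higher and 2314 to 2806 lower in DMSO, and 383 to 774 higher and 333 to 711 lower for the difference, lowest without shNC GNA replicate 2. For the difference limma called 314 genes higher on log2(FPKM + 1) and 285 on log2(FPKM + 0.1), against 559; these fits change the values, the offset and the test together, and the cause was not tested. DESeq2 on the counts called 611 higher and 573 lower. Scaling by library totals moved the split of the difference calls from 559 higher and 513 lower to 421 and 685, and that of the DMSO calls from 2631 and 2844 to 3213 and 2252; limma on log2(FPKM + 1) gave 2898 and 2091 in DMSO and 2954 and 2124 on log2(FPKM + 0.1). The labels share replicate numbers across groups; with a replicate block the counts were 1940 higher and 2023 lower under GNA, 2568 and 2761 in DMSO and 482 and 453 for the difference, and the numbers did not pair the libraries (1 of 3 GNA pairs had a correlation over 0.1, and own-number libraries were the best match for 4 of 12).

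Of 203 genes named in the text or by the naming rule and called under GNA, 157 kept the call in every alternative and 46 lost it in at least 1. For the difference 50 of 82 kept it. Directions turned in 2 cases. Without shNC DMSO replicate 3, SLC25A6 went to a log2 fold change of 0.049 in DMSO (adjusted p = 0.97), and it reached -2.19 without another of these libraries, replicate 1, and on log2(FPKM + 1) the difference of IGFN1 became -0.22 (adjusted p = 0.15). Low counts limit TNC, HSPA6 in DMSO, CHAC1 and SNAI2, and near-identical copies limit HSPA1A, HSPA1B, the AKR1C genes, FTL, SLC25A6 and AKAP17A.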

Other observations

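Median log2 fold changes by chromosome, over the 13876 tested genes that could be placed (92.3%), lay between -0.08 and 0.08 under GNA and between -0.07 and 0.04 in DMSO, so no chromosome stood far from 0 as a whole. The difference test called 15 genes that passed in neither hairpin contrast.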
